A study of Mus musculus with 8 samples.

Results

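The barcodes described here were taken as candidate migratory dendritic cells of injured and sham-operated mouse sciatic nerve. They were 100 of the 3541 barcodes kept in the 2 libraries prepared 1 week after surgery, and of 7752 kept in all 4 libraries of the series. A barcode, which stands for 1 droplet and usually 1 cell, was kept with at least 500 genes detected and under 10% of its unique molecular identifiers (UMIs, each counting 1 captured RNA molecule) from mitochondrial genes. Members were chosen by their measured Ccr7 and Fscn1 counts, at least 2 UMIs of Ccr7 and at least 1 of Fscn1. Of the members, 66 lay among 2100 kept barcodes of 1 library and 34 among 1441 of the other. They were set beside the 3441 other kept barcodes of the same libraries, and beside 528 barcodes with at least 2 UMIs of Cd209a and no UMI of Ccr7 or Fscn1 (148 and 380 in the 2 libraries).

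Single-cell RNA was sequenced from CD45+ CD11b+ cells sorted out of the sciatic nerve of male and female C57BL/6JolaHsd mice bought at 7 weeks of age. The mice had partial sciatic nerve ligation (PSNL, part of the nerve tied off with suture, an injury that does not resolve), nerve crush (the nerve squeezed with forceps, after which it regrows), or sham surgery (the nerve exposed and left alone). All were perfused before the nerves were dissected. At 1 week, 1 library held PSNL female, PSNL male and sham female samples and the other held crush female, crush male and sham male samples, with Ly6G+ cells left out of the sort, whereas the 2 libraries of 15 weeks held PSNL or crush samples with no sham. Each sample was marked by a hashtag, an oligonucleotide-tagged antibody taken here to bind MHC class I. Whether the antibodies also bind other surface proteins was not checked. How many mice shared a hashtag was not given. At 1 week the injury coincided with the library, so that these cannot be told apart, and week and batch coincided likewise. Where 5 values follow each other, they stand for the PSNL female, PSNL male, sham male, crush female and crush male samples at 1 week, in that order.

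Dendritic cells take up antigen in tissues, and on maturation they turn on the chemokine receptor CCR7, which guides them along lymph vessels to the draining lymph node, where they present antigen to T cells. Maturation is known to bring in fascin, the actin-bundling protein that Fscn1 encodes and that shapes the long dendrites, together with T cell-attracting chemokines, costimulatory and inhibitory ligands and the non-canonical NF-kB pathway, while uptake receptors and the synthesis of MHC class II decline. Conventional dendritic cells are divided into the cDC1 type, which cross-presents antigen, and the cDC2 type, which carries CD209a, SIRPA and CD11b.

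The files gave 1920 to 2675 barcodes per library. Members held 542469 UMIs in the PSNL library and 306772 in the crush library, with medians of 6200.5 and 8071 UMIs per barcode against 5165 and 5095 in other barcodes and 7123.5 and 6601.5 in Cd209a barcodes. In CPM, the UMIs of a gene per 1000000 UMIs of the summed barcodes, 3 UMIs, taken as the floor for a gene with no UMI, came to 5.53 and 9.78 CPM in the members of the 2 libraries. By sample that floor was 38.5, 14.7, 68.7, 33.2 and 48.3 CPM. The sham female sample had 2 members and is left out of the 5 values. Intervals and floors cover counting error only. Any 2 of the libraries shared 1 to 3 barcode sequences, of which 0 were members.

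Members of the PSNL library carried 1 hashtag in 50 barcodes and several in 16, and those of the crush library 1 in 26 and several in 8. Several hashtags marked 24.2% and 23.5% of members, 29.7% and 26.8% of other barcodes, and 34.5% and 31.6% of Cd209a barcodes. Members with several hashtags held more RNA of macrophages. C1qa, a complement gene of macrophages, had a UMI in 7 of 50 and 1 of 26 members with 1 hashtag but in 11 of 16 and 8 of 8 with several. Cd209a barcodes had C1qa in 10 of 96 and 38 of 260 with 1 hashtag and in 34 of 51 and 89 of 120 with several. The 12 macrophage markers took 0.388% and 0.0255% of the UMIs of members with 1 hashtag, against 1.19% and 1.96% with several and 1.80% and 2.5% in other barcodes with 1 hashtag. Their Ccl22 levels were 1329 and 3445 CPM with 1 hashtag and 563 and 9.05 CPM with several. Values by library include these barcodes, and values by sample leave them out. The doublet caller scored 8 and 3 of the members among the 6% of highest doublet scores in their libraries, or 12.1% and 8.82%, against 3.54% and 4.76% of other barcodes.

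The gate sat on a continuum. In the PSNL library, the 3 barcodes just inside it with 2 Ccr7 UMIs had Ccl22 at 0 CPM and Il4i1 at 252 CPM, and the 10 just inside with 1 Fscn1 UMI had 1049 and 1316 CPM. Just outside, 8 barcodes with 1 Ccr7 UMI and Fscn1 had Ccl22 at 26.8 CPM and Il4i1 at 250.5 CPM. A further 46 barcodes had at least 2 Ccr7 UMIs and no Fscn1, with Ccl22 at 1255 CPM, Il4i1 at 601 CPM and Cacnb3 at 83.5 CPM, against 302 CPM of Cacnb3 in members. In the crush library, 4 and 1 barcodes lay just inside, and 5 with 1 Ccr7 UMI and 8 with no Fscn1 UMI lay just outside. The barcodes with Ccr7 but no Fscn1 thus shared Ccl22 and Il4i1 with the members and are counted here among the others.

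Members were 3.14% of kept barcodes in the PSNL library (exact binomial 95% interval 2.44 to 3.98) and 2.36% in the crush library (1.64 to 3.28). By sample, they were 19 of 532 barcodes in PSNL female (3.57%), 29 of 874 in PSNL male (3.32%), 11 of 332 in crush female (3.31%) and 9 of 607 in crush male (1.48%). The sham samples had 6 of 106 in the male (5.66%, interval 2.11 to 11.9) and 2 of 64 in the female (3.12%, interval 0.381 to 10.8). The lowest share was that of crush male, and its interval of 0.680 to 2.80% overlapped those of all the others. PSNL and crush samples averaged 3.44% ± 0.179 (SD, n = 2) and 2.40% ± 1.29 (SD, n = 2), a difference of 1.05 percentage points (two-sided exact permutation test over samples, p = 0.333, the smallest that 2 against 2 samples can give). Without crush male the difference was 0.132 and without crush female 1.96 percentage points, and with at least 2 UMIs of both gate genes it was 0.291 (exact permutation p = 1). Injured and sham samples averaged 2.92% and 4.39% (exact permutation test, p = 0.533, smallest possible 0.133). Thinned to 2000 UMIs per barcode, the gate found 31 of 1745 (1.78%) and 18 of 1204 (1.5%) barcodes.

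The Cd209a barcodes were spread differently over the samples. They made up 6.39% and 6.29% of barcodes in PSNL female and male, 17.0% in sham male, and 20.2% and 28.8% in crush female and male. The number of members per 100 Cd209a barcodes was therefore 55.9 and 52.7 in the PSNL samples, 33.3 in sham male, and 16.4 and 5.14 in the crush samples. The sort required the CD11b protein, and its part in either share was not tested.

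**Figure D1:**
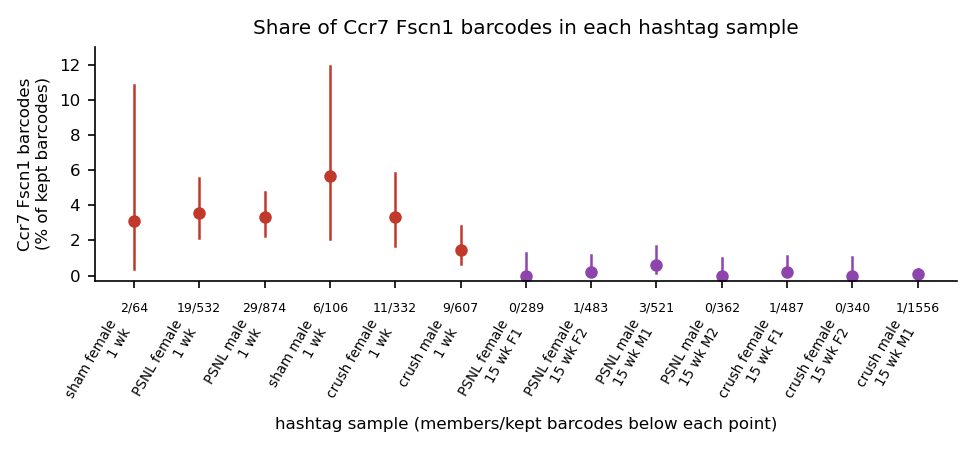
Percent of kept barcodes that met the Ccr7 and Fscn1 gate in each hashtag sample at 1 and 15 weeks; points are samples and bars exact binomial 95% intervals. The 6 samples at 1 week lay between 1.48% and 5.66%, with overlapping intervals, and the 7 at 15 weeks between 0 and 0.576%.

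The members were first described by the 4 markers that name them, which were chosen with earlier results of these data known. Ccr7 and Fscn1 chose the members, at 922 and 1125 CPM and 1038 and 1353 CPM in the 2 libraries. In GRCm38 (GENCODE vM21), Ccr7 lies on chromosome 11, 99144196 to 99155077, minus strand, Fscn1 on chromosome 5, 142960343 to 142973185, plus strand, Ccl22 on chromosome 8, 94745590 to 94751699, plus strand, and Il4i1 on chromosome 7, 44816387 to 44840809, plus strand. The other pair of markers, which the gate did not name, was Ccl22, a chemokine that draws CCR4-bearing T cells, and Il4i1, an amino acid oxidase that dampens T cells. Ccl22 stood at 1118, 1421, 2749.5, 4976 and 1706 CPM, against 5.45 to 52.5 CPM in other barcodes of the same samples. Il4i1 stood at 976, 1215, 756, 575 and 933 CPM, against 6.88 to 45.7 CPM. Both were above the other barcodes in every sample, with no overlap. As the gate and these genes come from the same cells, all comparisons with the other barcodes at 1 week are descriptions without a test.

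Genes of the conventional dendritic cell lineage were partly high. Of 11, 10 could be assessed, 3 were called higher (Spib, Zbtb46 and Batf3), 2 lower (Bcl11a and Itgax), and the median log2 ratio was 1.01, against -0.20 over all assessed genes. A call meant at least 2-fold the same way in both libraries with at least 20 CPM in the higher set, and 371 of 5344 assessed genes were higher (6.94%) and 324 lower (6.06%). Zbtb46, a transcription factor of conventional dendritic cells, was 46.1 and 39.1 CPM in members of the 2 libraries, 5.24 and 18.4 in other and 16.6 and 35.2 in Cd209a barcodes. Batf3, needed for cDC1 development, reached 206, 113, 298, 299 and 145 CPM in the samples, against 15.8 to 104 CPM in other barcodes. Spib, an ETS family factor, was 89.9, 29.4, 22.9, 22.1 and 96.6 CPM, against 1.66 to 9.36 CPM. These 3 did not overlap between the sets. Flt3, the receptor for the dendritic cell growth factor, was 164 and 130.4 CPM by library against 23 and 93.4 CPM, so that it was past 2-fold in only 1 library.

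Bcl11a, a transcription factor of dendritic cell and lymphoid progenitors, was nearly absent. It was 0, 0, 0, 11.1 and 0 CPM in members and 289, 224, 99.1, 207 and 221 CPM in the Cd209a barcodes of the same samples. The members with 0 allow up to 38.5, 14.7, 68.7 and 48.3 CPM in PSNL female, PSNL male, sham male and crush male, which is under the Cd209a level in each. Itgax, the CD11c integrin, was 12.9 and 42.4 CPM by library, against 57.8 and 114 CPM in other and 66.4 and 151 CPM in Cd209a barcodes. Itgam, which encodes the CD11b used in the sort, was 0, 78.4, 22.9, 88.5 and 0 CPM, below the range of 244 to 544 CPM in other barcodes in all 5 samples.

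By library, few markers of either conventional type were called. Of the 8 cDC1 markers, 3 could be assessed and Wdfy4, a cross-presentation gene, was lower (14.7 and 35.9 CPM against 37.1 and 129.5 CPM). Xcr1 and Clec9a, which define cDC1, had 0 and 3.26 CPM and 1.84 and 0 CPM, at or under the floor. Of 9 assessed cDC2 markers, Mgl2, Klf4 and Itgam were lower and Cd1d1 higher. In barcodes with 1 hashtag only, more were lower. These were 7 of 9 cDC2 markers, with 1 higher (median log2 ratio -2.88), and 3 of 3 cDC1 markers (median -2.74). Over all genes assessed in these barcodes, 924 of 5499 were lower, with a median of -0.34. Cd209a itself was 0, 0, 0, 122 and 0 CPM in members, against 95 to 495 CPM in other barcodes. Cd1d1, which presents lipids to NKT cells, was 179.9, 19.6, 367, 243 and 0 CPM, against 2.58 to 14.2 CPM, high in 4 of the 5 samples and at 0 in crush male. Beyond the 4 markers, Spib, Zbtb46 and Batf3 went with the label. Ccl22 and Il4i1 were high too, but as markers chosen with earlier results of these data known they are no separate support for it. Bcl11a and Itgax went against it, and 5 of the 10 assessed lineage genes were not called. Zbtb46 was close to its Cd209a level in the crush library. The members were not placed as cDC1 or cDC2 by these markers.

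Markers of other cell types were low or carried by a few members. T cells can also express Ccr7, but Cd3e, Cd3d, Cd3g, Trbc2 and Lck had 0 UMIs in all 100 members, and Trac had 1 barcode. Cd4 and Cd8a reached at most 32.2 and 16.1 CPM in the members of any of the 5 samples. Any T cell marker had a UMI in 2 of 66 and 2 of 34 members (3.03% and 5.88%), against 2.36% and 2.63% of other barcodes. Of B cell markers, Ighm was lower (18.4 and 61.9 CPM against 42.5 and 127 CPM) and Cd79a and Pax5 were at 0. Il7r, the interleukin-7 receptor chain of lymphoid cells, was the exception among 8 NK and innate lymphoid markers, at 385, 436, 344, 299 and 386 CPM against 33.5 to 179 CPM in other barcodes. Ncr1, Klrb1c, Gzma and Gata3 had 0 UMIs. Of 10 Schwann, fibroblast and endothelial markers, Kdr was higher by library (31.3 and 52.2 CPM against 10.8 and 2.13 CPM) but was at 0 CPM in 3 of the 5 samples.

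All 12 macrophage markers had UMIs in members of both libraries, with summed levels of 7667 and 7239.9 CPM, against 16769 and 24166 CPM in other barcodes and 8324 and 11055 CPM in Cd209a barcodes. Of these, 4 were called lower, among them Lyz2, Ms4a7 and Csf1r, and 8 neither way, with a median log2 ratio of -1.29. In barcodes with 1 hashtag only, all 11 that could be assessed were lower, with a median of -3.81. Lyz2, the lysozyme of phagocytes, was 25.7, 1882, 22.9, 199 and 0 CPM, against 3377 to 8168 CPM in other barcodes, so that members of PSNL male stood apart. C1qa was likewise 0, 446, 0, 11.1 and 0 CPM, against 582 to 1657 CPM. Of 7 assessed neutrophil markers 5 were lower and of 5 monocyte markers 4. The part of RNA from other cells in the members' values was not tested beyond leaving out barcodes with several hashtags.

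**Figure D2:**
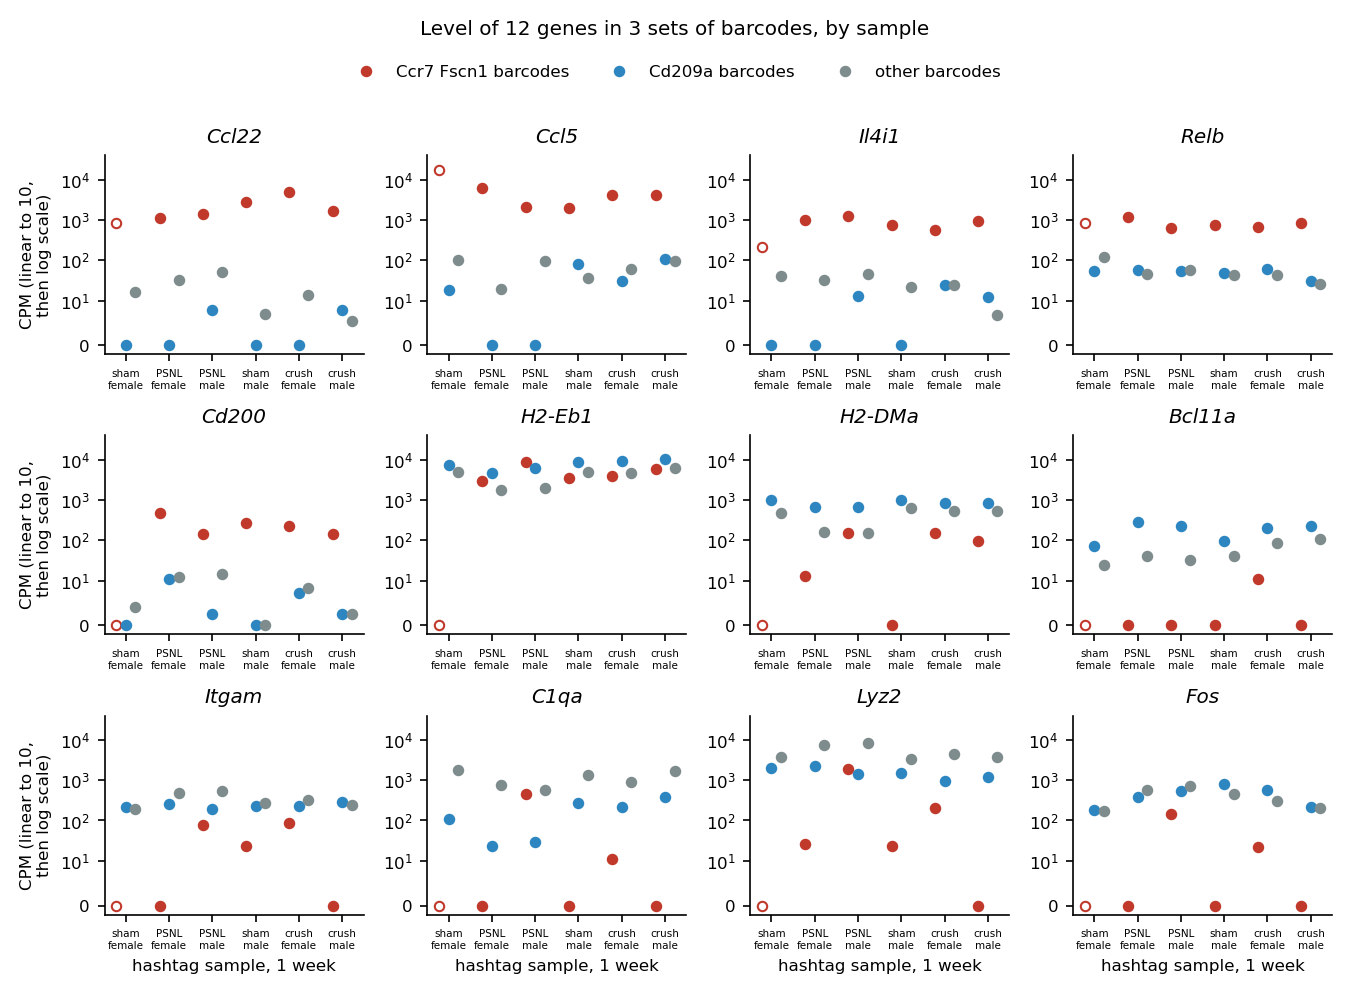
CPM of 12 genes in members, other barcodes and Cd209a barcodes of each 1 week sample; each point is a sample, open circles mark sham female with its 2 members, and the vertical axis is linear up to 10 CPM and logarithmic above. Ccl22, Ccl5, Il4i1, Relb and Cd200 separated members from both other sets in the 5 samples, H2-DMa and Bcl11a separated them from Cd209a barcodes downwards, and C1qa and Lyz2 were highest in PSNL male members, with Lyz2 at 199 CPM in crush female.

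The calls were then read by sample. They came from library sums that include the same barcodes, so agreement by sample was partly fixed in advance and is no replication. Of the 371 higher genes, 324 were above the other barcodes in all 5 samples and 292 did not overlap, where 437 of all 5344 genes (8.18%) lay above without overlap. Of the 324 lower genes, 300 were below in all 5 samples and 250 did not overlap, where 998 of 5344 (18.7%) lay below without overlap. The share of all 5344 genes above or below in all 5 samples was not computed. Set against the Cd209a barcodes, 347 of 5414 genes were higher (6.41%) and 439 lower (8.11%). With barcodes of 1 hashtag only, 491 genes were higher and 924 lower, and these held 364 of the 371 and 274 of the 324.

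Of 10 assessed chemokine and cytokine genes, Ccl22, Ccl5, Ccl17 and Cxcl16 were higher, Ccl4 and Ccl3 lower, and the median log2 ratio was 0.38. Ccl5, which attracts T cells and monocytes, was 6166, 2078, 1925, 4235 and 4104 CPM, against 19.5 to 98.1 CPM in other barcodes, a mean log2 ratio of 5.34. It had a UMI in 81.8% and 76.5% of members, against 4.38% and 8.96% of other barcodes. Cxcl16, which binds CXCR6, was 784, 902, 321, 729.7 and 644 CPM, against 67.4 to 220.3 CPM. Ccl17, like Ccl22 a CCR4 ligand, was 38.5, 24.5, 1649.7, 785 and 129 CPM, so that it varied more among samples than the others did.

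Ccl4 and Ccl3, inflammatory chemokines of macrophages, were 0, 363, 0, 0 and 16.1 CPM and 0, 58.8, 0, 0 and 0 CPM in members, against 204 to 729 CPM and 76.3 to 319 CPM in others. In PSNL male, 71 of the 74 Ccl4 UMIs lay in 1 member. Cytokines that dendritic cells can give to T cells were scarce. Il12b had 12.9 and 0 CPM by library and was at 0 in all other barcodes, Il12a, Il23a and Il6 had 0 UMIs in members, and Ebi3 differed little (27.7 and 26.1 CPM against 20.7 and 30.5 CPM). Il15, which sustains memory T cells, was 16.6 and 48.9 CPM against 20.5 and 15.8 CPM. Il1b was 818 and 231 CPM against 1376 and 297 CPM, with 128 CPM as the median of the 5 member samples.

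Of 8 assessed chemokine receptors, Cxcr5 and Gpr183 were higher beside Ccr7, on which the members were selected, and Ccr1, Ccr2 and Cx3cr1 were lower, with a median of -0.72. Cxcr5, the receptor for the follicle chemokine CXCL13, was 25.7, 34.3, 91.7, 22.1 and 48.3 CPM, against 0 to 1.25 CPM. Gpr183, the oxysterol receptor that positions dendritic cells and B cells in lymphoid organs, was 334, 294, 1146, 287 and 499 CPM, against 41.9 to 101 CPM, highest in sham male. Ccr2, by which monocytes leave the blood, was 0, 29.4, 0, 88.5 and 0 CPM, against 327 to 652 CPM. Cx3cr1, the fractalkine receptor, was 0, 29.4, 0, 0 and 0 CPM, against 99.3 to 406 CPM. None of these 4 genes overlapped between members and others. The atypical receptor Ackr2 had 0 UMIs.

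The cytoskeleton and migration list was largely higher. All 20 genes were assessed, 11 were higher, Rac2 was lower, and the median log2 ratio was 1.26. Cacnb3, a calcium channel beta subunit, was 964, 265, 549.9, 697 and 547 CPM, against 0 to 7.49 CPM in other barcodes, with a UMI in 78.8% and 97.1% of members and in 1.38% and 0.782% of the rest. Sema7a, a membrane semaphorin, was 141, 132, 160.4, 133 and 96.6 CPM, against 2.91 to 7.85 CPM. The semaphorin receptor Plxnc1, known to bind Sema7a, was 449.6, 240.1, 298, 818 and 435 CPM, against 28.7 to 63.4 CPM. Marcksl1 and Marcks, which bind actin at the plasma membrane, were 507 and 603 CPM and 1171 and 1669 CPM by library, against 127 and 45.2 CPM and 573 and 647 CPM. Actb, cytoplasmic actin, was also higher (29496, 23698, 32994, 27918 and 20985 CPM, against 10496 to 12434 CPM). Rac2, the haematopoietic Rac GTPase, was 12.8, 63.7, 115, 22.1 and 16.1 CPM, against 185 to 273 CPM.

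Costimulatory genes were a mixed group. Of 8 assessed, Cd40, Cd83 and Icosl were higher, Cd48 was lower, and the median was 1.11. Cd40, through which helper T cells license dendritic cells, was 257, 152, 115, 155 and 113 CPM, against 8.43 to 24.0 CPM in other barcodes. Cd83, a surface marker of mature dendritic cells, was 347, 578, 756, 486 and 322 CPM, against 82.6 to 255 CPM. The CD28 ligands Cd80 and Cd86 were not called, at 75.6 and 111 CPM and 125 and 81.5 CPM by library, against 62.1 and 24.9 CPM and 64.5 and 39.5 CPM. Cd70, the CD27 ligand, had 7.37 and 0 CPM, at or near the floor.

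Among inhibitory and regulatory genes, 9 of 14 assessed were higher and Havcr2 and Vsir lower, with a median of 3.27. Cd200, a ligand that restrains myeloid cells through CD200R, was 475, 147, 275, 221 and 145 CPM, against 0 to 14.9 CPM. The PD-1 ligands Cd274 and Pdcd1lg2 were 218, 157, 412, 166 and 241 CPM and 64.2, 39.2, 45.8, 44.2 and 16.1 CPM, against 9.17 to 69.2 CPM and 0.573 to 6.61 CPM. Socs2, a suppressor of cytokine signalling, was 1310.4, 377, 871, 984 and 467 CPM, against 7.45 to 28.4 CPM. Il2ra, the CD25 chain of the interleukin-2 receptor, was 398, 269.5, 68.7, 221 and 274 CPM, against 0 to 15.2 CPM. None of these 5 overlapped between the sets. The paper describes small numbers of Il2ra+ cells in its mouse data as non-myeloid cells that passed its sort. Whether the members with Il2ra belong to that group was not tested. The TNF receptors Tnfrsf4 and Tnfrsf9 were also higher, at 77.4 and 94.5 CPM and 62.7 and 39.1 CPM by library, against 1.11 and 1.68 CPM and 5.91 and 0.897 CPM. The tryptophan-degrading Ido1 had 0 UMIs in members, which allows up to 5.53 and 9.78 CPM.

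The NF-kB list was led by its non-canonical arm, in which the kinase NIK (Map3k14), held down by TRAF3 and cIAP proteins, processes the Nfkb2 product to pair with RelB. Of 19 assessed genes, 9 were higher and 0 lower, with a median of 1.07. Relb was 1156, 632, 756, 674 and 853 CPM, against 25.8 to 55.8 CPM in other barcodes, a mean log2 ratio of 3.95, and it had a UMI in 93.9% and 100.0% of members, against 20.1% and 14.1% of other barcodes. Birc2, which encodes a cIAP, was 1156, 515, 939, 575 and 724 CPM, against 27.8 to 42.6 CPM. Traf1, an adaptor induced by NF-kB, was 1554, 1024, 985, 840.3 and 982 CPM, against 70.2 to 151 CPM. Nfkb2 and Map3k14 were 218, 196, 137, 210.1 and 225 CPM and 449.6, 314, 183, 265 and 370.1 CPM, against 23.9 to 41.9 CPM and 39.4 to 63.8 CPM.

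The canonical members differed less. Rela and Nfkb1 were 71.9 and 65.2 CPM and 238 and 352 CPM by library, against 44.4 and 47.8 CPM and 162 and 261 CPM, and the inhibitor Nfkbia was 938 and 766 CPM against 1436 and 550.0 CPM. Rel, the lymphoid c-Rel subunit, was the exception at 514, 568, 1191, 652 and 1046 CPM, against 154 to 222 CPM. Against the Cd209a barcodes the picture was the same for the non-canonical genes, with Relb at a mean log2 ratio of 3.88, Birc2 at 4.13 and Map3k14 at 1.54. Of the survival genes, Bcl2a1b was higher (286 and 378 CPM against 88.0 and 96.1 CPM), though its reads may be shared with its near-identical copies, and Bcl2 and Bcl2l1 were not called.

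The bases just before the start of the called NF-kB genes were read for 1 NF-kB site, GGG, any 2 bases and then TTTCC, on both strands over 250 bases (RefSeq, GRCm38.p6). Of 19 genes of the list with an entry, 6 held it (31.6%), against 447 of 27025 genes (1.65%). Among the higher genes it was 2 of 8 (25%), and among those not called 4 of 9 (44.4%), so its presence did not follow the calls. The windows of the 2 higher genes, Nfkb2 and Rel, are shown because Nfkb2 encodes the partner of RelB and Rel was higher in all samples. Capitals mark the match, which in Rel is its reverse complement, and each is written along the gene's strand.
Nfkb2, chr19:46304712-46304736, plus strand: tcggggggccgaaaGGGGCTTTCCc
Nfkb2, another annotated start, chr19:46305691-46305728, plus strand: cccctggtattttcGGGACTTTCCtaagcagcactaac
Rel, chr11:23771037-23771074, minus strand: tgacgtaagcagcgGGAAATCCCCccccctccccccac
The same search found 0 of 11 of the genes with the largest ratios and 0 of 19 of the mature dendritic cell list. A match describes the letters only, and no binding was measured.

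MHC class II genes separated members from Cd209a barcodes rather than from the rest. Of 12 assessed against other barcodes, 0 were higher, March1 was lower, and the median was -0.21. Against Cd209a barcodes, 6 of 13 were lower (March1, H2-DMb1, H2-DMa, H2-Oa, H2-Ob and Ciita) and 0 higher, with a median of -0.88, against -0.25 over all assessed genes. H2-DMa, a chain of the molecule that loads peptide onto class II, was 12.8, 152, 0, 155 and 96.6 CPM in members and 657, 673, 980.4, 835 and 841 CPM in Cd209a barcodes. Ciita, the master regulator of class II transcription, was 0, 162, 115, 144 and 64.4 CPM, against 311 to 547 CPM. March1, the ubiquitin ligase that removes class II from the surface and is known to be turned off on maturation, was 0, 0, 22.9, 11.1 and 0 CPM, against 88.1 to 194 CPM in Cd209a and 56.0 to 163 CPM in other barcodes.

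The class II chains themselves stayed abundant. H2-Eb1 was 2903, 8742, 3551, 3914 and 5729 CPM in members, against 4689, 6069, 8669, 9220.1 and 10491 CPM in Cd209a and 1734, 1988, 5077, 4742 and 6105 CPM in other barcodes. Members were below the Cd209a barcodes in 4 of the 5 samples and above them in PSNL male. Cd74, the invariant chain, was 8839 and 11122 CPM by library, against 11049.7 and 20193 CPM in Cd209a barcodes. The other barcodes of the 2 libraries differed among themselves (4262 and 12563 CPM).

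MHC class I presentation was higher in part, with 7 of 18 assessed genes higher, 0 lower and a median of 0.78. The non-classical H2-Q7 and H2-Q6 were 797, 529, 321, 276 and 547 CPM and 179.9, 44.1, 22.9, 111 and 80.5 CPM, against 35.1 to 81.0 CPM and 0 to 8.60 CPM in other barcodes. Reads of these near-identical H2 genes may be split between copies. Psmb8 and Psmb9, immunoproteasome subunits, were 2248, 1171, 1123, 1039 and 966 CPM and 514, 426, 160.4, 464 and 402 CPM, against 264 to 456 CPM and 74.5 to 212 CPM. The classical H2-K1 was not called but stood above in all 5 samples, at 2891, 1950.4, 1489, 2023 and 2848 CPM, against 640.2 to 1317 CPM. The chaperones Calr and Pdia3 were 323 and 323 CPM and 212 and 153 CPM, against 559.5 and 584 CPM and 284 and 363 CPM.

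The hashtag counts are a surface protein readout that the gate did not use. The antibodies were taken to bind MHC class I, and other targets were not checked, so the counts may not be those of MHC class I alone. The median count of a barcode's own hashtag was 776, 932, 628.5, 1533 and 1672 UMIs in members, against 622, 856, 314.5, 959 and 1272 UMIs in other barcodes. It was higher in members in 5 of 5 samples, by a mean of 0.50 ± 0.34 on the log2 scale (SD, n = 5; two-sided exact sign-flip permutation test, p = 0.0625, the smallest that 5 samples can give). Against Cd209a barcodes the mean was 0.28 ± 0.25 (SD, n = 5; exact p = 0.0625). The members' RNA UMIs were also higher in 5 of 5 samples, by 0.46 on the log2 scale, and per RNA UMI the hashtag difference was -0.012. Against Cd209a barcodes, the median RNA UMIs of members were 3916, 6924, 7092, 7425 and 6109, against 4819, 7074, 9516, 6981 and 5883. Members were lower in 3 of 5 samples, with a mean log2 difference of -0.12. No hashtag difference per RNA UMI was computed against Cd209a barcodes. The parts of barcode depth, of surface MHC class I and of any other bound protein in the hashtag signal were not tested.

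**Figure D3:**
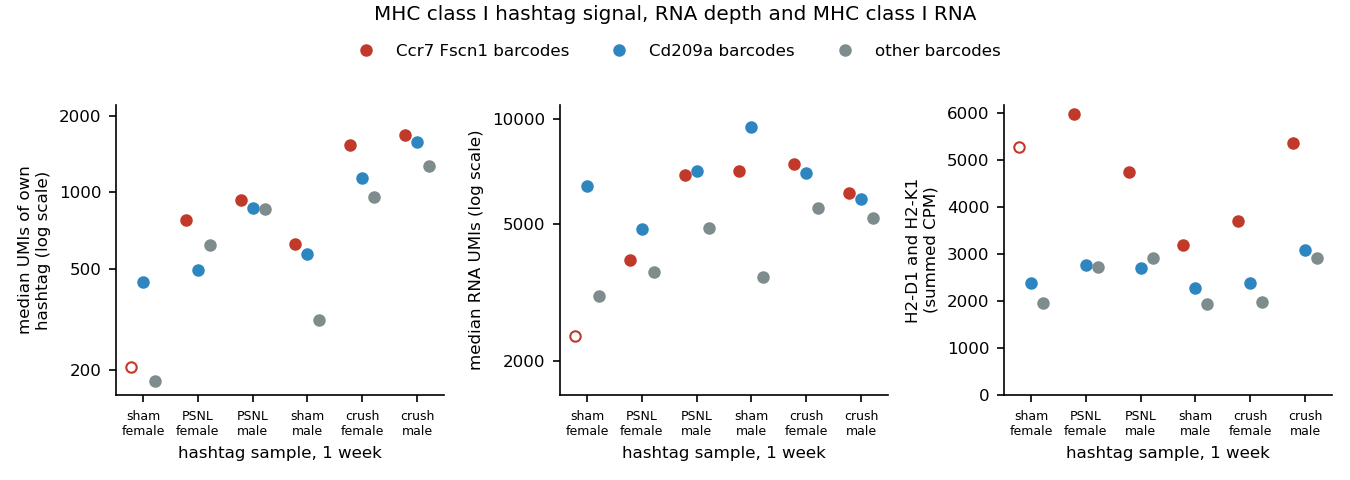
Median own-hashtag UMIs (log axis), median RNA UMIs (log axis) and summed H2-D1 and H2-K1 CPM per barcode set in each 1 week sample; each point is a sample. Members lay above other barcodes of the same sample in all 5 samples with at least 5 members for each of the 3 measures.

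Of 16 endocytic and pattern receptors assessed by library, Ly75 was higher, Mertk, Msr1, Fcgr3 and Tlr2 were lower, and 11 went neither way. The median was -0.91. In barcodes with 1 hashtag only, 12 of 16 were lower and 1 higher, with a median of -2.62, against 924 of 5499 lower over all assessed genes. Ly75, which encodes the dendritic cell uptake receptor DEC-205, was 141, 78.4, 275, 122 and 257 CPM, against 0 to 4.01 CPM in other barcodes. Mertk, the receptor for apoptotic cells, had no UMI in members of the 5 samples, against 26.6 to 63.6 CPM. Fcgr3, an Fc receptor, was 0, 68.6, 0, 22.1 and 0 CPM, against 176 to 279 CPM. The scavenger receptor Msr1 was 70.1 and 0 CPM by library, against 229.5 and 36.6 CPM. Against Cd209a barcodes, which are also low in these genes, Ly75 was higher and Fcer1g lower.

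The mature dendritic cell programme held the most called genes. Of 20 assessed, 17 were higher and 0 lower than in other barcodes, with a median of 3.97, and 19 of 20 were higher than in Cd209a barcodes, with a median of 4.21. Tbc1d4, a Rab GTPase-activating protein, was 2711, 1245, 1970.5, 1747 and 1996 CPM, against 29.1 to 81.9 CPM. Tmem123, a surface protein also called porimin, was 2659, 1215, 2337, 2864 and 1835 CPM, against 66.8 to 86.6 CPM. Serpinb6b and Serpinb9, protease inhibitors of which Serpinb9 blocks granzyme B, were 488, 162, 1169, 896 and 177 CPM and 321, 142, 389.5, 442 and 306 CPM, against 0 to 5.79 CPM and 2.08 to 8.03 CPM. Apol7c, an apolipoprotein L family member, was 141, 9.80, 206, 398 and 16.1 CPM, against 0 to 0.468 CPM. Lamp3, a lysosomal marker of mature human dendritic cells, had 0 UMIs in members.

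Among called genes of at least 100 CPM, the 15 largest mean log2 ratios over the 2 libraries were those of Fscn1 (7.68), Serpinb6b (7.10), Cacnb3 (6.80), Adcy6 (6.57), Ccr7 (6.46), Ccl22 (6.25), Ccl5 (5.34), Serpinb9 (5.11), Il2ra (5.11), Socs2 (5.08), Il4i1 (5.07), Eno3 (4.95), Tbc1d4 (4.89), Cd200 (4.63) and Ramp3 (4.41). Of those not yet described, Adcy6, an adenylyl cyclase, was 501, 132, 321, 232 and 225 CPM, against 0 to 4.21 CPM in other barcodes. Eno3, an enolase otherwise known from muscle, was 488, 137, 321, 354 and 435 CPM, against 3.74 to 12.4 CPM. Ramp3, a partner of the receptors for adrenomedullin and calcitonin gene-related peptide, was 167, 186, 160.4, 210.1 and 161 CPM, against 1.72 to 14.2 CPM. All 3 were above the other barcodes in the 5 samples, with no overlap.

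The 15 smallest ratios were those of genes of injury-associated macrophages, monocytes and neutrophils, from Mmp12, macrophage elastase (-3.68), Gpnmb (-3.22) and Spp1, osteopontin (-2.73), to Ccr1 (-1.77), Myo1f (-1.76) and Ccl3 (-1.75). Between them lay S100a9, Thbs1, S100a8, Retnlg, Fn1, Slc15a3, Plac8, Ccl4 and Lpl. Mmp12 was 0, 152, 0, 0 and 0 CPM in members, against 94.9 to 788 CPM in other barcodes. Spp1 was 25.7, 1220.2, 0, 0 and 0 CPM, against 83.4 to 7544 CPM. Lpl, lipoprotein lipase, was 0, 53.9, 0, 0 and 16.1 CPM, against 271 to 878 CPM. Myo1f, a myosin of the immune system, was 0, 19.6, 0, 11.1 and 0 CPM, against 105 to 131 CPM. Apart from PSNL male, members of each sample held at most 33.2 CPM of any of Mmp12, Spp1 and Thbs1.

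Interferon-stimulated genes were not called in either direction by library. Of 11 assessed, 0 were higher and 0 lower, with a median of -0.03. With 1 hashtag only, 1 of 11 was higher and 1 lower, with a median of -0.53. Ifit3 was 0, 58.8, 0, 0 and 16.1 CPM, against 1.40 to 145 CPM in other barcodes, so that both sets varied widely between samples. Of the immediate early genes that tissue digestion can induce, Fos was lower (0, 147, 0, 22.1 and 0 CPM, against 209 to 710.4 CPM). The other 7 were not called by library, with a list median of -0.85. With 1 hashtag only, 4 of 8 were lower and 0 higher, with a median of -1.98. Cell cycle genes were mostly under the level needed for a call. Mki67, a marker of cycling cells, had a UMI in 0 of 66 members of the PSNL library, which allows a share of members with a UMI of up to 4.55% (3 of 66), and in 3 of 34 of the crush library.

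The members were not uniform. Ccl22 had a UMI in 45 of 66 and 19 of 34 members, against 2.70% and 1.05% of Cd209a barcodes. The 5 members with most Ccl22 held 41.7% of its UMIs in the PSNL library and 84.3% in the crush library. Ccl17 was restricted to 6 of 66 and 12 of 34 members, and all of them also had Ccl22 and Il4i1 UMIs. Aldh1a2, the retinoic acid-forming enzyme, was seen in 9 of 66 and 14 of 34, and Il2ra in 49 of 66 and 14 of 34. In the crush library, 8 of the 12 members with Ccl17 and 8 of the 9 with Cd1d1 had Aldh1a2. Thinned to 2000 UMIs per barcode, Ccl17 was found in 0% and 27.3% of members with that depth, Aldh1a2 in 5.00% and 27.3%, and Il2ra in 46.7% and 6.06%. The opposite order of the Il2ra and Ccl17 shares between the libraries was thus kept at equal depth. By sample, the Il2ra levels of PSNL members (398 and 269.5 CPM) and crush members (221 and 274 CPM) overlapped. Sham male members of the crush library had 68.7 CPM.

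**Figure D4:**
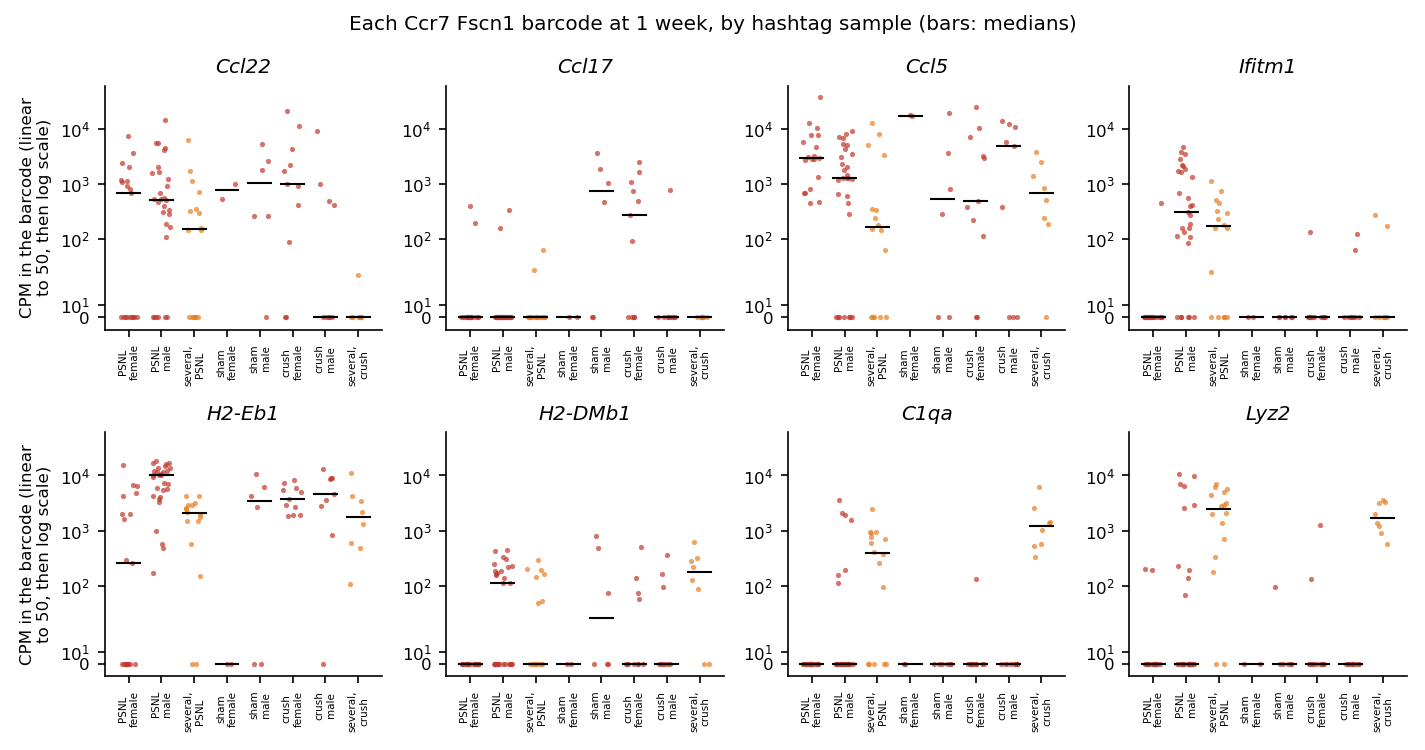
CPM in each of the 66 and 34 members for 8 genes, by sample; orange points carry several hashtags, bars mark medians, and the vertical axis is linear up to 50 CPM and logarithmic above. Ccl22 and Ccl17 reached high levels in a few members, Ifitm1 was present mostly in PSNL male, and C1qa mostly in barcodes with several hashtags.

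Members of PSNL male and PSNL female, which shared a library, differed, though each is 1 sample and no test can be made. Ifitm1, an interferon-induced membrane protein, had a UMI in 23 of 29 male members (79.3%, exact binomial 95% interval 60.3 to 92.0) and 1 of 19 female members (5.26%, 0.133 to 26.0), at 1147 and 51.4 CPM. Isg15, a ubiquitin-like protein induced by interferon, had one in 23 of 29 and 5 of 19 (26.3%, 9.15 to 51.2), at 1205.5 and 179.9 CPM. Irf7, the factor that amplifies interferon responses, had one in 15 of 29 and 1 of 19. The 12 interferon genes summed to 2563 CPM in male members (exact Poisson interval 2348 to 2792) and 771 CPM in female members (588 to 992), against 988 and 773 CPM in other barcodes of these samples. In sham male, crush female and crush male members the sums were 252, 431 and 1641 CPM.

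Class II and macrophage genes differed in the same way. H2-Eb1 had a UMI in 29 of 29 male and 10 of 19 female members (52.6%, 28.9 to 75.6), and Ciita and H2-DMb1 in 15 of 29 (51.7%, 32.5 to 70.6) and 0 of 19 (exact binomial upper limit 17.6%). The class II list summed to 38312 CPM in male members (37467 to 39170) and 14671 CPM in female members (13832 to 15547), and to 22271, 23131 and 32266 CPM in sham male, crush female and crush male. Macrophage markers summed to 5386 CPM (5072 to 5714) and 103 CPM (44.4 to 203), against 137, 398 and 129 CPM in the other samples. The summed macrophage and class II levels were therefore highest together in PSNL male members, and the part of macrophage RNA in this was not tested. The 29 male members were also deeper, with a median of 6924 UMIs against 3916 in the 19 female members.

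PSNL and crush members were compared over the samples with at least 10 members, which were both PSNL samples and crush female (59 members). Of 1692 genes tested by edgeR's quasi-likelihood test with Benjamini-Hochberg adjustment, 15 were higher in PSNL (0.887%) and 3 lower (0.177%). With 1 crush sample, that sample was assumed to vary as the PSNL samples did. The 3 lower genes were Ccl17, Adam23, a catalytically inactive adhesion protein of the ADAM family, and Aldh1a2.

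Ccl17 had a log2 difference of PSNL to crush of -4.57 (SE 0.81, adjusted p 3.63e-05 by edgeR). Its members held 3 UMIs in PSNL female, 5 in PSNL male, 72 in sham male, 71 in crush female and 8 in crush male, or 38.5, 24.5, 1649.7, 785 and 129 CPM, and the 8 UMIs of crush male came from 1 member. Adam23 had -3.76 (SE 0.87, adjusted p 0.0034 by edgeR), with 25.7, 19.6, 298, 332 and 80.5 CPM. Aldh1a2 had -3.21 (SE 0.81, adjusted p 0.012 by edgeR), with 89.9, 24.5, 160.4, 509 and 64.4 CPM. Sham male, which shared the crush library and was in no fit, lay above both PSNL samples for all 3 genes, while crush male lay below PSNL female for Aldh1a2. The library and the injury cannot be told apart here.

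The 15 higher genes were Spp1, S100a9, Arg1, C1qb, Ccl4, Ly6a, Ifitm1, S100a8, Ctsl, Irf7, Fn1, C1qa, Ms4a4c, Isg15 and AY036118. Apart from AY036118, they had most of their UMIs in PSNL male, whereas AY036118 was 4484, 2436, 1535, 509 and 3911 CPM. S100a9, for example, was 25.7, 779, 0, 0 and 0 CPM, with 158 of its 159 UMIs in 1 member of PSNL male, and Spp1 was 25.7, 1220.2, 0, 0 and 0 CPM, with 236 of its 249 UMIs in 3 members. Several are genes of macrophages or neutrophils, and the part of RNA from such cells was not tested. Ifitm1, Irf7 and Isg15 had log2 differences of 5.83 (SE 1.24), 4.71 (SE 1.21) and 3.80 (SE 1.02), with adjusted p of 0.0011, 0.014 and 0.021 by edgeR. As PSNL female members held few of these UMIs, the fitted values of these genes rest on PSNL male.

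The calls did not hold when crush male entered with its 9 members. Over 2 PSNL and 2 crush samples, edgeR called 0 of 1130 genes in either direction (0.0% and 0.0%), where 40 had an unadjusted p under 0.05, and DESeq2 called 0 with 23 unadjusted. Only 3 of the 18 called genes could be fitted there. With sex as a block over these 4 samples, Jun was higher (0.0885%) and Ccl17 and Ccnd1 lower (0.177%), at log2 differences of 2.65, -3.34 and -2.5 (adjusted p 0.038, 0.000456 and 0.014 by edgeR). Ccl17 was thus the gene called in both the smaller fit and the blocked one. DESeq2 on 2 PSNL and 1 crush samples called 0 genes, with 16 at an unadjusted p under 0.05.

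The difference between PSNL and crush was then set against that of other barcodes from the same 4 samples, chosen after seeing the data. Of 8886 genes in edgeR's interaction, 7 had a larger PSNL to crush ratio in members (0.0788%) and 4 a smaller one (0.045%). Ccl22, with a log2 interaction of -3.40 (adjusted p 0.010 by edgeR), was among the 4, but this rested on barcodes at the edge of the gate. Other barcodes with a UMI of Ccr7 or Fscn1 held 75 of the 76 and 245 of the 254 Ccl22 UMIs of the others in PSNL female and male, against 29 of 29 in crush female and 0 of 19 in crush male. With these barcodes left out, the interaction of Ccl22 was 0.077 ± 0.62 (SE, adjusted p 1 by edgeR). In crush female and male members, 3 barcodes held 90.2% and 98.1% of the Ccl22 UMIs. The interaction of Il2ra went from 1.81 (adjusted p 1) to 3.80 ± 0.87 (SE, adjusted p 0.016 by edgeR) under the same change.

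At 15 weeks the gate found 4 of 1769 barcodes in the PSNL library (0.226%, interval 0.0616 to 0.578) and 2 of 2442 in the crush library (0.0819%, 0.00992 to 0.296). By sample these were 1 of 483 and 3 of 521 in PSNL female F2 and PSNL male M1, and 1 of 487 and 1 of 1556 in crush female F1 and crush male M1. PSNL female F1, PSNL male M2 and crush female F2 had 0 of 289, 0 of 362 and 0 of 340, which allows shares of up to 1.04%, 0.83% and 0.882% when counted as 3 barcodes of the total (exact binomial upper limits 1.27%, 1.01% and 1.08%). PSNL and crush samples averaged 0.196% and 0.0899% (exact permutation test, p = 0.743, smallest possible 0.0571). Shares at 1 week were above all 7 of these, and week and batch cannot be told apart.

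The genes that led at 1 week were found in these 6 barcodes too, which the 1 week gene lists did not use. Of the 13 leading genes other than Ccr7 and Fscn1, 11 had a UMI and all 11 were above the other barcodes, while Ramp3 and Serpinb9 had 0. A single UMI in the 6 barcodes came to 12.7 CPM, more than the other barcodes held of these 11 genes except Ccl5 and Tbc1d4. For the rest, being above the other barcodes therefore adds nothing to having a UMI. Adcy6 had a UMI in 6 of 6, at 408 CPM against 0.51 CPM in other barcodes. Il4i1 had 1313 CPM against 3.62 CPM and Socs2 523 CPM against 1.85 CPM, each in 6 of 6. Ccl22 was found in 5 of 6 (446 CPM against 1.56 CPM), Ccl5 in 5 of 6 (3302 CPM against 29.9 CPM) and Cacnb3 in 5 of 6 (535 CPM against 0.483 CPM).

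Relb was 994 CPM against 38.7 CPM and Apol7c 497 CPM against 0.349 CPM, each in 6 of 6, and Aldh1a2 was seen in 4 of 6 (918 CPM against 9.72 CPM). Itgam and Cd209a had 0 UMIs, which allows up to 38.2 CPM. Of the 15 genes lowest at 1 week, 3 had a UMI, and Fn1 alone was above the other barcodes, in 1 barcode (484 CPM against 259 CPM). Retnlg, Thbs1, Plac8, Ccr1 and S100a8 were under 38.2 CPM in the other barcodes, so their 0 UMIs do not place them lower. With 6 barcodes over 4 samples no test of expression was made at 15 weeks.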

How the data were processed

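Gene and hashtag UMI counts per barcode were deposited by the authors as made by Cell Ranger (6.0.0 in the 1 week and 7.0.0 in the 15 week file headers), with GRCm38 in the submitters' processing notes. Whether introns were counted was not given in the sources used here. Counts were used raw and summed per library or hashtag sample. A barcode was given to a sample when exactly 1 hashtag lay over a cut at the density minimum that separates background from positive counts (at least 10 UMIs). Xist and Ddx3y levels fitted the sex in the labels of all 13 hashtag samples.

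The members and gene lists were chosen with earlier results of these data known. Tests were edgeR 4.0.16 quasi-likelihood fits with TMM, filterByExpr and a threshold of 0.05, and exact permutation tests over samples. DESeq2 1.42.0 was an alternative. Scores for doublets came from scanpy 1.11.5, and members with high scores were kept. On simulated counts, 2 against 1 samples recovered 0% of 200 genes changed 2-fold and 4.5% of those changed 4-fold, and 2 against 2 samples 1.5% and 28.5%. At 4-fold, the simulated 2 against 2 samples also gave 4 false calls. The simulation set the same fixed dispersion for every gene, not one estimated from the members, so its recovery may differ from that in these data. Gm42418, a ribosomal RNA overlap gene, took 12.2% to 17.0% of UMIs in members and other barcodes at 1 week, and 9.20% to 10.3% in Cd209a barcodes. Named genes were up to 5 per list with the largest ratios, defining markers of other cell types, the 15 largest and 15 smallest ratios among called genes of at least 100 CPM, and all genes called between injuries. Any other gene was named after its values were seen. Nothing says how many animals a sample pooled, so p-values measure the spread between these samples. Ifi30 and Clec7a were not analysed here.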

Additional observations from a re-analysis of the deposited data

Results flagged for a closer look

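Of 35 groups of 4 or 5 samples examined for a value far from the rest, 12 had one, where chance gives about 1 in 20 of independent groups. These were not independent, since 9 were genes of PSNL male, several with other samples at 0 CPM. The share of members in crush male, 1.48% of its barcodes, lay far below the other 3 injured samples at 1 week. Among the genes with the smallest ratios, PSNL male members stood far above the other samples for 9, at 152 CPM of Mmp12, 1220.2 of Spp1, 779 of S100a9, 789 of S100a8, 475 of Fn1, 73.5 of Slc15a3, 259.7 of Plac8, 363 of Ccl4 and 58.8 of Ccl3. Some rest on 1 of its 29 members, which held 158 of 161 UMIs of S100a8, 158 of 159 of S100a9 and 71 of 74 of Ccl4. Crush female members stood apart for Retnlg, a neutrophil gene, at 254 CPM, and for Aldh1a2, at 509 CPM.

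The difference between PSNL and crush was also compared between members and other barcodes, as an interaction in edgeR's quasi-likelihood fit over 2 PSNL and 2 crush samples, an analysis chosen after seeing the data. Of 8886 genes, 7 had a higher PSNL to crush ratio in members than in others (0.0788%) and 4 a lower one (0.045%). Ccl22 was among the lower ones, with a log2 interaction of -3.40 (adjusted p 0.010 by edgeR). Its members held 1118 and 1421 CPM in PSNL against 4976 and 1706 CPM in crush, whereas other barcodes held 31.5 and 52.5 CPM in PSNL against 13.6 and 5.45 CPM in crush. With other barcodes that had no UMI of Ccr7 or Fscn1, its interaction was 0.077 (adjusted p 1 by edgeR), while the other 10 genes kept their direction and an adjusted p of 0.0065 to 0.035. Mt2, a metallothionein, had -5.08, the transglutaminase Tgm2 -4.08, and the elongation factor Ell2 -3.66. In crush female members, all 16 Tgm2 UMIs lay in 1 barcode and 14 of 15 Mt2 UMIs in 3. The 9 Ell2 UMIs of that sample lay in 7 members. The higher ones included H2-Oa at 3.79 and C1qa at 5.51. The rest had no UMI in members of most samples, so that their fitted values are no bounds. They were Selenop at 11.09, C1qc at 11.16, Ly6a at 11.21, Ifit2 at 11.40 and C1qb at 11.85. All 13 Ifit2 UMIs of PSNL male members lay in 3 barcodes.

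The 15 week crush library held 110 UMIs of a 4th hashtag that no label assigns to a sample. They entered no comparison.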

How the results depend on the processing

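Thinned to 2000 UMIs per barcode, the member share was 1.78% and 1.5% in the 1 week PSNL and crush libraries and 0 in the 15 week crush library. The other gates, cell filters and doublet removal moved no library's share outside its interval, and the PSNL minus crush difference of 1.05 percentage points kept its direction, at 0.132 to 1.96 without 1 sample each and 0.291 with 2 UMIs of each gate gene. The 695 genes apart from other barcodes and 786 from Cd209a barcodes became 413 and 481 with at least 50 CPM, 1323 and 1314 in injured samples only, and 1415 and 1383 with 1 hashtag, the last chosen after seeing the data.

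The 18 genes called between PSNL and crush became 0 without a filter on low counts, 0 by DESeq2, 29 with 1 UMI of each gate gene and 7 without the highest doublet scores. With at least 3 members per sample they became 0, also by DESeq2, with HTODemux or without the highest doublet scores, 3 with the replicate block by sex, and 12 with 1 UMI of each gate gene. Leaving out 1 sample there gave 0 to 52, with 52 without PSNL female, 9 without PSNL male, 0 without crush female and 18 without crush male. Without 1 sample each, Isg15 ranged from -0.68, without PSNL male, to 3.80, and AY036118 from -0.20, without crush female, to 2.84. The cause was not tested. The hashtag difference of 0.50 became -0.012 per RNA UMI (exact permutation p = 0.875, higher in 3 of 5 samples). With other barcodes that had no UMI of Ccr7 or Fscn1, chosen after seeing the data, the interaction of Ccl22 went from -3.40 to 0.077. Leaving Gm42418 out gave 750, 797 and 18 genes. Labels share only the sex between injuries, so the block pairs sexes, not animals. The planned test of members against other barcodes at 15 weeks was not run, since no sample had enough members. Sample sizes of 2 to 29 members limit every value by sample.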
